A study of Mus musculus with 12 samples.

Results

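Bile acid synthesis and transport was followed through 10 genes, chosen by symbol as the rows of the deposited expression table that encode its hydroxylases, conjugating enzyme, carriers and regulators. All 10 were found among the 22276 gene symbols of the table. RNA-seq libraries were made from the liver, white fat (white adipose tissue, WAT), brown fat (BAT) and quadriceps muscle of male C57BL/6J mice that were 17 wk old. NCD-veh mice were kept on a normal chow diet (NCD) and given vehicle (veh), HFD-veh mice were switched to a high-fat diet (HFD) at 8 wk of age and given vehicle, and HFD-ncls mice had the same HFD and were given narciclasine (ncls), a plant compound, from 10 wk of age. Doses were given weekly by oral gavage, and the vehicle was a cyclodextrin solution. Each of the 12 combinations of organ and group is represented by 1 library, so the values have no spread between mice, and no p-value is given. The number of mice behind a library, the depot of the WAT and the hour at which tissue was taken are not given in the sources used here.

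Levels are in FPKM, a fragment number divided by the length of the exons and by the mapped fragments of the library, which is a level per length and can be compared between genes. Differences between libraries are log2 ratios of FPKM + 0.1, taken where either library of the pair reached 1 FPKM. All 10 bile acid genes passed that minimum in each liver comparison. Depth, read from the steps of the lowest values, was about 22400000 to 23400000 fragments in the liver libraries and about 18600000 to 26900000 fragments in the other 9. At that depth the bile acid genes had from about 601 fragments (Nr0b2 in HFD-ncls liver) to about 16600 fragments (Cyp8b1 in NCD-veh liver), and the spread between mice is not known.

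Bile acids are made from cholesterol in hepatocytes. In the classical pathway, Cyp7a1 adds the initial hydroxyl group and sets the rate, and Cyp8b1 adds the hydroxyl group that directs the product to cholic acid. In the alternative pathway, Cyp27a1 oxidizes the side chain and Cyp7b1 acts on the oxysterols that result. Baat joins bile acids to taurine or glycine, Abcb11 (the bile salt export pump) secretes them into bile, and Slc10a1 (the sodium-taurocholate cotransporter) takes them up again from portal blood. Nr1h4 encodes FXR, the nuclear receptor for bile acids, which induces Nr0b2, encoding the repressor SHP. Fgfr4 is the hepatocyte receptor that, with its co-receptor Klb, receives FGF15 from the intestine, and both routes are known to lower Cyp7a1. Cyp7a1 is also known to follow the daily cycle of light and feeding in mice.

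The promoters of 3 of these genes are shown because Nr0b2 and Abcb11, both textbook targets of FXR, were lowest in HFD-ncls liver, and Cyp8b1, a textbook target of SHP, varied little. Each window holds 250 bases before and 50 bases after the annotated start of the gene (RefSeq, GRCm38.p6). A promoter was found for 7 of the 10 genes. Entries for Cyp7a1, Cyp7b1 and Baat were missing. Capitals mark matches to CACGTG, the E-box, to AGGTCA, a nuclear receptor half-site, to TCAAGG, the first letters of the extended half-site of Nr5a2, and to TATAAA, the core element bound by TBP, with both strands searched.
Nr0b2, chr4:133553126-133553425, plus strand: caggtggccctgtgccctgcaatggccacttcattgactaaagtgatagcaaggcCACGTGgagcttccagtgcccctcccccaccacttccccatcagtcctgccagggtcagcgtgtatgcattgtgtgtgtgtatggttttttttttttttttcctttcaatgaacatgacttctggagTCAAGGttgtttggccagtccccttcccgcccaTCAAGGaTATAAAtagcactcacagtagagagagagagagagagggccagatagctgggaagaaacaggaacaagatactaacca
Abcb11, chr2:69342567-69342866, minus strand: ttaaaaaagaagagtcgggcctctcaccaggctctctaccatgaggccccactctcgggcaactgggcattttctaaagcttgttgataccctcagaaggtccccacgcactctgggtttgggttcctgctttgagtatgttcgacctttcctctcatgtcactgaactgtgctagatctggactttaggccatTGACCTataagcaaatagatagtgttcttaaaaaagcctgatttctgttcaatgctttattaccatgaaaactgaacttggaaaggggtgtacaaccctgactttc
Cyp8b1, chr9:121916256-121916555, minus strand: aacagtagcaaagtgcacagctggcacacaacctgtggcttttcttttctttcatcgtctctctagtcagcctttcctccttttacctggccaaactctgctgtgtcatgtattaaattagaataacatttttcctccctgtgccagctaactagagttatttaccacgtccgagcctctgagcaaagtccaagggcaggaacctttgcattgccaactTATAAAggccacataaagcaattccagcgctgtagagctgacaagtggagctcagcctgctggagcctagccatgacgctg
In the Nr0b2 window the E-box starts at -195, TCAAGG occurs at -68 and -35, and the TATA box starts at -28. The Abcb11 window holds 1 half-site on the opposite strand at -56 to -51, and the Cyp8b1 window a TATA box at -31. Among 32851 promoters of this length, 7.15% hold the E-box, 16.3% the half-site, 14.4% TCAAGG and 13.6% the TATA box. Such matches are a description of the letters and do not show binding.

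The liver libraries were checked against 18 hepatocyte markers, of which 17 had a value in every library (Alb had none in liver), and all 17 were above 1 FPKM in all 3 liver libraries. Their summed level was 51912 FPKM under NCD-veh, 41927 under HFD-veh and 45018 under HFD-ncls. Of the 17, 3 (Hpx, Itih3 and Ambp) were over 2-fold lower in HFD-veh than in NCD-veh liver, where 2.27% of all genes tested were. In that comparison 12 of the 17 were lower and 5 higher, with a median log2 ratio of -0.15. The lowest level of Adipoq in WAT was 1600 FPKM, that of Ucp1 in BAT 740 and that of Ckm in muscle 15744. Several libraries held genes of another organ. The HFD-veh liver library held all 10 of a list of muscle genes above both other liver libraries, with a sum of 70.6 FPKM against 2.27 and 3.26 and a median of 0.0614% of the HFD-veh muscle level. For Cyp27a1, a gene that muscle also expresses, that share would amount to 0.0276 FPKM. Muscle genes summed to 2318, 917 and 170 FPKM in the BAT libraries, in the order NCD-veh, HFD-veh, HFD-ncls, and to between 69.8 and 93.4 FPKM in the WAT libraries. The HFD-veh muscle library and both HFD libraries of WAT held hepatocyte markers, as described with the organ pattern.

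HFD feeding was accompanied by a much higher level of Cyp7a1 and by little else among the enzymes. Cyp7a1 (mm9 chromosome 4, 6192759 to 6202780, minus strand) had 11.5 FPKM under NCD-veh, 105 under HFD-veh and 60.5 under HFD-ncls. Its HFD-veh level was 9.14 times its NCD-veh level, a log2 ratio of 3.18, the 23rd highest of the 10016 genes tested. It was the 1 gene of the 10 that was over 2-fold higher in HFD-veh than in NCD-veh liver, where 2.86% of all genes tested were. In HFD-ncls liver, Cyp7a1 stood between the other libraries, with a log2 ratio of -0.80 to HFD-veh and of 2.38 to NCD-veh.

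**Figure D1:**
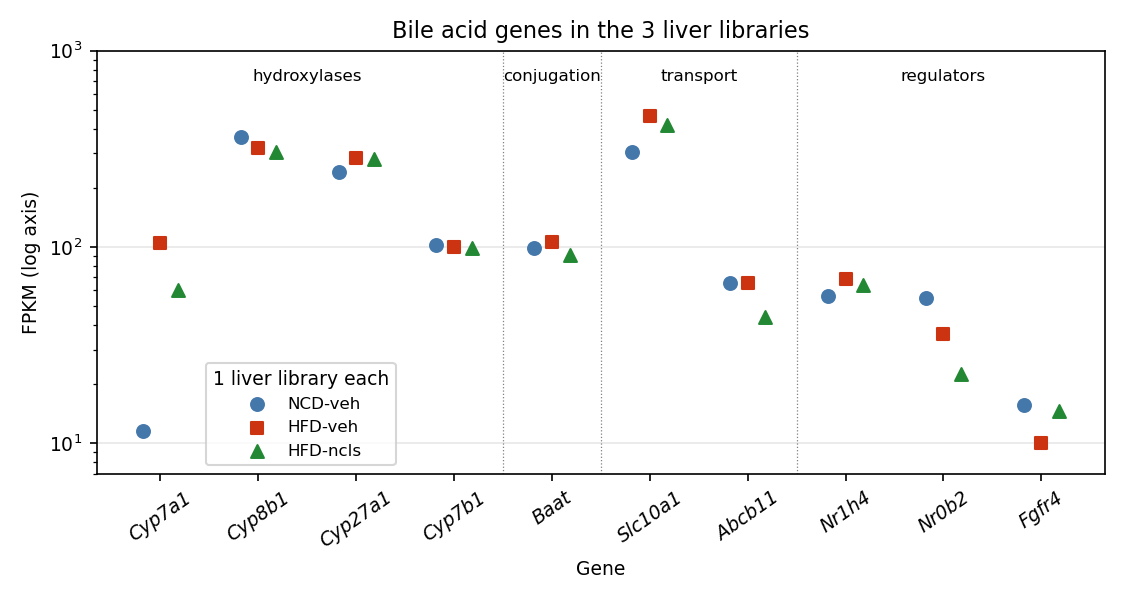
FPKM of the 10 bile acid genes (log axis) in the liver libraries of NCD-veh (circles), HFD-veh (squares) and HFD-ncls mice (triangles), 1 library each and grouped by role. Cyp7a1 spans 11.5 to 105 FPKM, whereas the other hydroxylases keep nearly the same level in the 3 libraries.

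The other enzymes were close to level across the 3 liver libraries. Cyp8b1 (mm9 chromosome 9, 121823474 to 121825423, minus strand) had 363 FPKM under NCD-veh, 319 under HFD-veh and 306 under HFD-ncls. Cyp27a1 (mm9 chromosome 1, 74760148 to 74784464, plus strand) had 241, 285 and 281 FPKM in the same order. Cyp7b1 (mm9 chromosome 3, 17971950 to 18143338, minus strand) had 102, 99.5 and 98.3 FPKM, and its highest value was 1.04 times its lowest. Baat (mm9 chromosome 4, 49502294 to 49519429, minus strand) had 99.1, 107 and 90.9 FPKM. The largest log2 ratio of these genes in any liver comparison was -0.25, for Cyp8b1 between HFD-ncls and NCD-veh liver.

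The order of the hydroxylases changed through Cyp7a1 alone. In NCD-veh liver Cyp7a1 was the lowest of the 10 genes and ranked 3246 among all 22201 genes with a value, in HFD-veh liver it was the fifth highest of the 10 and ranked 589, and in HFD-ncls liver it was the seventh and ranked 970. Cyp8b1 was 31.6 times as abundant as Cyp7a1 in NCD-veh liver, 3.03 times in HFD-veh and 5.06 times in HFD-ncls. The ratio of Cyp7a1 to Cyp7b1, the hydroxylases of the classical and the alternative pathway, was 0.113, 1.06 and 0.615 in the same order. Cyp7a1 made up 1.60% of the summed FPKM of the 4 hydroxylases under NCD-veh, 13.0% under HFD-veh and 8.12% under HFD-ncls liver. The sum itself was 718, 808 and 745 FPKM.

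The repressor and its target stood in opposite order between diets, but not between the HFD libraries. Nr0b2 (mm9 chromosome 4, 133109291 to 133112451, plus strand), which encodes SHP, had 54.6 FPKM under NCD-veh, 35.8 under HFD-veh and 22.6 under HFD-ncls. Its log2 ratio was -0.61 between HFD-veh and NCD-veh, -0.66 between HFD-ncls and HFD-veh and -1.27 between HFD-ncls and NCD-veh. The last of these made it the 1 gene of the 10 that was over 2-fold lower in HFD-ncls than in NCD-veh liver, where 2.62% of all genes tested were. Cyp7a1 was the 1 gene over 2-fold higher in that comparison, where 2.58% were. Between HFD-ncls and HFD-veh liver Cyp7a1 and Nr0b2 were both lower, so the ratio of Cyp7a1 to Nr0b2 was 0.211 under NCD-veh, 2.94 under HFD-veh and 2.67 under HFD-ncls liver.

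The RNA level of FXR varied little. Nr1h4 (mm9 chromosome 10, 88916979 to 88996330, minus strand) had 56.1 FPKM under NCD-veh, 68.5 under HFD-veh and 63.6 under HFD-ncls. The order of the libraries was another one than for its textbook target Nr0b2. These values give RNA and not the activity of FXR, and its part in the Nr0b2 level was not tested. Fgfr4 (mm9 chromosome 13, 55254001 to 55270120, plus strand) had 15.7 FPKM under NCD-veh, 9.97 under HFD-veh and 14.7 under HFD-ncls. It was the only gene of the 10 with an HFD-ncls level above the HFD-veh level, by a log2 ratio of 0.55, after a ratio of -0.65 between HFD-veh and NCD-veh. Its co-receptor Klb, from the list of other regulators, had 6.44, 7.46 and 3.35 FPKM, with a log2 ratio of -1.13 between HFD-ncls and HFD-veh. Fgfr4 was therefore 2.44 times as abundant as Klb under NCD-veh, 1.34 times under HFD-veh and 4.37 times under HFD-ncls.

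The uptake carrier and the export pump differed in where they stood apart. Slc10a1 (mm9 chromosome 12, 82054172 to 82068971, minus strand) had 306 FPKM under NCD-veh, 465 under HFD-veh and 420 under HFD-ncls, and was the highest of the 10 genes in both HFD libraries. Abcb11 (mm9 chromosome 2, 69076339 to 69180671, minus strand) had 65.1, 65.8 and 44.0 FPKM, and stood lower in HFD-ncls liver alone. Their log2 ratios were 0.60 for Slc10a1 between HFD-veh and NCD-veh and -0.58 for Abcb11 between HFD-ncls and HFD-veh. Slc10a1 was 4.70 times as abundant as Abcb11 under NCD-veh, 7.07 times under HFD-veh and 9.54 times under HFD-ncls.

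None of the 10 genes was over 2-fold higher or lower between HFD-ncls and HFD-veh liver, where 1.00% of the 9956 genes tested were higher and 1.31% lower, and none was over 2-fold lower between HFD-veh and NCD-veh, where 2.27% were. At 1.4-fold, Cyp7a1, Nr0b2 and Abcb11 were lower and Fgfr4 higher in HFD-ncls liver than in HFD-veh liver, against 8.07% of all genes lower and 6.88% higher. Between HFD-veh and NCD-veh, Cyp7a1 and Slc10a1 were past 1.4-fold higher and Nr0b2 and Fgfr4 past 1.4-fold lower, against 13.3% of all genes higher and 10.5% lower. Between HFD-ncls and NCD-veh, Cyp7a1 was past 1.4-fold higher and Nr0b2 and Abcb11 past 1.4-fold lower, against 11.5% and 9.46% of all genes. The median log2 ratio of the 10 genes was 0.06 between HFD-veh and NCD-veh and -0.13 between HFD-ncls and HFD-veh, and that of all genes tested was 0.04 and 0.02.

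**Figure D2:**
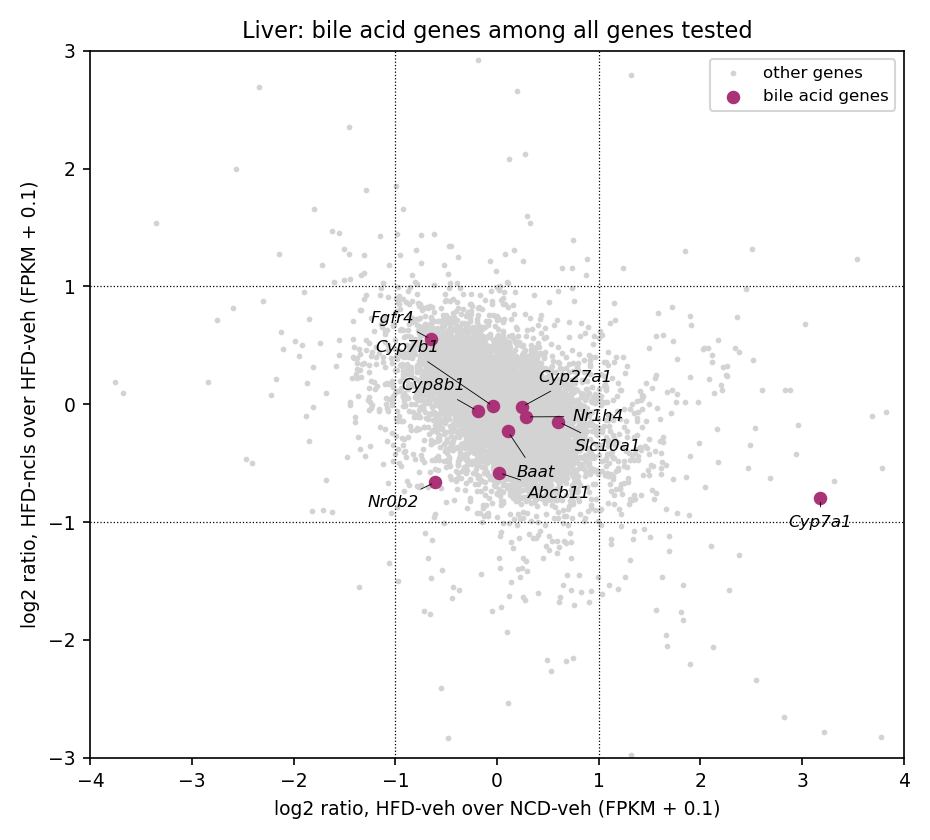
Log2 ratio in liver between HFD-veh and NCD-veh (x axis) and between HFD-ncls and HFD-veh (y axis), for the 10 bile acid genes (large points) among 9835 genes, of which 31 lie outside the axes. Both axes share the HFD-veh library, so the downward slope of the cloud is in part built in. The dotted lines mark 2-fold, and Cyp7a1, at 3.18 and -0.80, stands apart from the other 9.

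Some clock genes also differed widely between the same libraries. Of 14 clock genes, 13 were tested between HFD-veh and NCD-veh liver, of which 5 were over 2-fold higher, 2 were over 2-fold lower and the others were not past 2-fold. Over all genes tested, 2.86% were past 2-fold higher and 2.27% lower. The median log2 ratio of the clock genes was 0.37. The ratio was larger in size than that of Cyp7a1 for Dbp (3.79) and Arntl (-3.36). Dbp, a circadian transcription factor known to act on the Cyp7a1 promoter, had 3.87 FPKM under NCD-veh, 54.8 under HFD-veh and 37.7 under HFD-ncls. Per2 had 1.15, 5.89 and 7.39 FPKM and Per3 0.965, 6.09 and 5.27, and the further genes past 2-fold higher were Nr1d2 (log2 ratio of 1.35) and Tef (1.12). Arntl, which encodes the core clock factor BMAL1, ran the other way, with 5.61, 0.457 and 1.52 FPKM. Nfil3, a repressor at the same DNA sites as Dbp, had 22.3, 7.28 and 15.01 FPKM. Npas2 was under the minimum in this comparison, with 0.884 FPKM in NCD-veh and listed at 0 in HFD-veh liver.
Between HFD-ncls and HFD-veh liver, Arntl (log2 ratio of 1.54) and Nfil3 (1.03) were over 2-fold higher and none of the 13 genes tested was over 2-fold lower. The shares of all genes tested were 1.00% higher and 1.31% lower. Between HFD-ncls and NCD-veh liver, 4 clock genes were over 2-fold higher and 3 lower, among the latter Clock (-1.23) and Nr1d1 (-1.08). There, 2.58% of all genes tested were higher and 2.62% lower. In muscle Dbp had 19.4, 55.2 and 48.2 FPKM in that order of groups, in WAT 45.7, 18.6 and 31.5, and in BAT 14.2, 11.3 and 13.5. The hour of tissue collection and the diet cannot be told apart in these libraries, and the part of the clock in the Cyp7a1 difference was not tested.

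**Figure D3:**
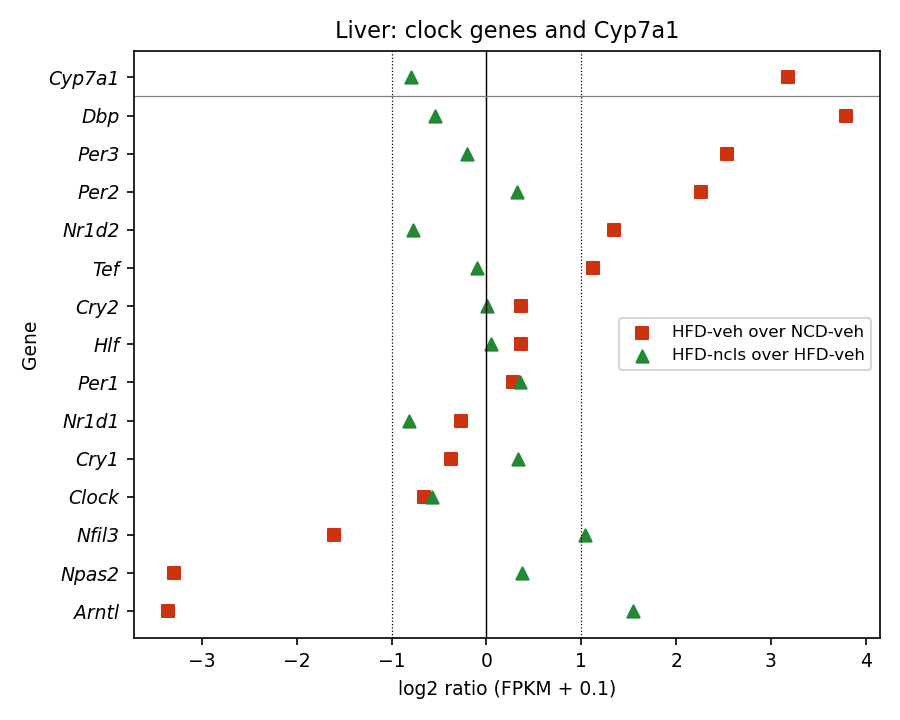
Log2 ratios (FPKM + 0.1) of 14 clock genes and Cyp7a1 in liver, between HFD-veh and NCD-veh (squares) and between HFD-ncls and HFD-veh (triangles), with dotted lines at 2-fold. The square of Cyp7a1, at 3.18, lies between those of Per3, at 2.54, and Dbp, at 3.79.

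Cell type and zonation markers were read in the same way, since in bulk tissue fewer cells of a type and less RNA per cell cannot be told apart. Over all genes tested, the median log2 ratio between HFD-veh and NCD-veh liver was 0.04, with 2.86% past 2-fold higher and 2.27% lower. Between HFD-ncls and HFD-veh liver the median was 0.02, with 1.00% past 2-fold higher and 1.31% lower. Between HFD-ncls and NCD-veh liver, 2.62% were past 2-fold lower. Kupffer cell and macrophage markers were lower in HFD-veh than in NCD-veh liver for 11 of 11 genes, with a median log2 ratio of -0.57. Between HFD-ncls and HFD-veh liver, 9 of the 10 tested were lower, with a median of -0.34, and Marco was higher (0.824 and 1.12 FPKM in HFD-veh and HFD-ncls). Their summed level was 170 FPKM under NCD-veh, 111 under HFD-veh and 86.6 under HFD-ncls, the same order as Nr0b2. Clec4f, which marks Kupffer cells, had 22.9, 16.3 and 12.2 FPKM. Cyp7a1 is known to be expressed around the central vein. Of 10 pericentral hepatocyte markers, 8 were higher in HFD-veh than in NCD-veh liver, with a median log2 ratio of 0.40. In HFD-ncls liver 9 were lower than in HFD-veh liver, with a median of -0.31. Both comparisons share the single HFD-veh library. Between HFD-ncls and NCD-veh liver, 5 of the 10 were higher and 5 lower, with a median of 0.07 (0.05 over all genes tested). None of the 10 was past 2-fold in these comparisons. The 8 periportal markers were all lower in HFD-veh than in NCD-veh liver, with a median of -0.31, and 1 of them, Hal, was past 2-fold at 158 FPKM in NCD-veh and 66.9 in HFD-veh. In HFD-ncls liver Hal (66.7 FPKM) and Ctsc (15.7, against 39.0 in NCD-veh) were over 2-fold below NCD-veh, whereas 4 of the 8 periportal markers were above it. Between HFD-ncls and HFD-veh liver, 5 of the 8 were higher, with a median of 0.10, among them Sds (118 and 235 FPKM) and Ass1 (696 and 1070), and none was past 2-fold.
Cholangiocyte markers summed to 32.0, 25.7 and 26.2 FPKM, most of it Spp1 (26.8, 22.6 and 21.2). Endothelial markers summed to 39.9, 39.2 and 34.5 FPKM. Stellate cell and fibroblast markers summed to 64.5, 79.2 and 87.2, most of it Dcn (49.8, 63.2 and 69.2). Single genes moved otherwise. Between HFD-veh and NCD-veh liver, Lrat and Des were past 2-fold higher, and Sox9 (3.74 and 1.49 FPKM) and Col1a1 past 2-fold lower. Between HFD-ncls and HFD-veh liver, Krt19 (1.57 and 0.558 FPKM) and Col1a1 were past 2-fold higher. Adipocyte markers summed to 11.99, 30.6 and 24.3 FPKM. All 4 that were tested were higher in HFD-veh than in NCD-veh liver, and Cfd (0.163, 10.2 and 5.71 FPKM) and Cidec (1.75, 5.88 and 2.43) were past 2-fold, while Adipoq, Lep and Retn were listed at 0 in all 3 liver libraries. Brown adipocyte markers summed to 156, 42.9 and 81.4 FPKM, nearly all of it Elovl3, which liver also expresses. The part of any of these cell types or zones in the bile acid genes was not tested.

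Among other synthesis enzymes, none of the 12 tested in a list of 13 was past 2-fold in any liver comparison. Over all genes tested, between 1.00% and 2.86% were, in each direction and comparison. Their median log2 ratio was 0.16 between HFD-veh and NCD-veh and -0.10 between HFD-ncls and HFD-veh, with 11 of 12 lower in HFD-ncls. The medians of all genes tested were 0.04 and 0.02. Of the 12, 2 were past 1.4-fold higher in HFD-veh than in NCD-veh liver, namely Abcd3, a peroxisomal transporter of bile acid intermediates (97.1, 163 and 142 FPKM), and Scp2, the peroxisomal thiolase of side chain shortening (753, 1180 and 1041). Hsd3b7, the next enzyme after the initial hydroxylation, had 214 FPKM under NCD-veh, 183 under HFD-veh and 169 under HFD-ncls. Akr1d1, which reduces the sterol ring, had 54.3, 69.5 and 47.4 FPKM. Cyp2c70, the enzyme that makes muricholic acids in mice, had 163, 200 and 190 FPKM, and Slc27a5, the bile acid CoA ligase that acts before Baat, 375, 344 and 324.

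Transporters were lower in HFD-ncls liver for 11 of the 13 that were tested of 16 listed with values, with a median log2 ratio of -0.37 to HFD-veh. The median of all genes tested in that comparison was 0.02. Slc10a2, the sodium-dependent bile acid carrier of ileum and bile duct, had 2.11 FPKM under NCD-veh, 7.22 under HFD-veh and 4.61 under HFD-ncls. It was the 1 transporter over 2-fold higher in HFD-veh than in NCD-veh, where 2.86% of all genes tested were. Slc10a5, a relative of Slc10a1, had 4.59, 8.77 and 2.86 FPKM. It was the 1 transporter over 2-fold lower in HFD-ncls liver than in HFD-veh liver, where 1.31% of all genes tested were. Slco1a4, a sinusoidal organic anion carrier, had 18.8, 9.74 and 6.73 FPKM. Its log2 ratio was -1.47 between HFD-ncls and NCD-veh, past 2-fold lower as were 2.62% of all genes tested. Slco1a4 belongs to a family of close copies, between which reads may have been divided. At the canalicular membrane, Abcc2, a pump for conjugated anions, had 53.6, 55.1 and 31.1 FPKM and Abcb4, the phospholipid exporter of bile, 64.5, 58.2 and 44.9, and both were lowest in HFD-ncls liver, as was Abcb11. Slc51a was listed at 0 in all 3 liver libraries, and Slc51b, its partner in basolateral export, at 0 in NCD-veh liver, with 0.574 FPKM under HFD-veh and 0.826 under HFD-ncls.

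Of 18 other regulators, 15 were tested between HFD-veh and NCD-veh liver. Fgf21, a hepatokine that acts through Klb, had 8.83 FPKM under NCD-veh, 3.29 under HFD-veh and 3.05 under HFD-ncls. It was over 2-fold lower in both HFD libraries than in NCD-veh liver. Of all genes tested, 2.27% were over 2-fold lower in HFD-veh than in NCD-veh liver and 2.62% in HFD-ncls than in NCD-veh liver. Prox1, a known co-repressor of Cyp7a1, had 8.55, 10.2 and 3.22 FPKM, a log2 ratio of -1.63 between HFD-ncls and HFD-veh and of -1.38 between HFD-ncls and NCD-veh. With Klb it was 1 of 2 regulators past 2-fold between HFD-ncls and HFD-veh, both lower, where 1.31% of all genes tested were. Hnf4a, which drives Cyp7a1 and Cyp8b1, had 162, 105 and 131 FPKM. Nr5a2 (LRH-1), the factor through which SHP is known to act on Cyp7a1, had 8.22, 9.32 and 5.99 FPKM. Fgf15, a gene of the intestine, was listed at 0 in all 3 liver libraries.

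**Figure D4:**
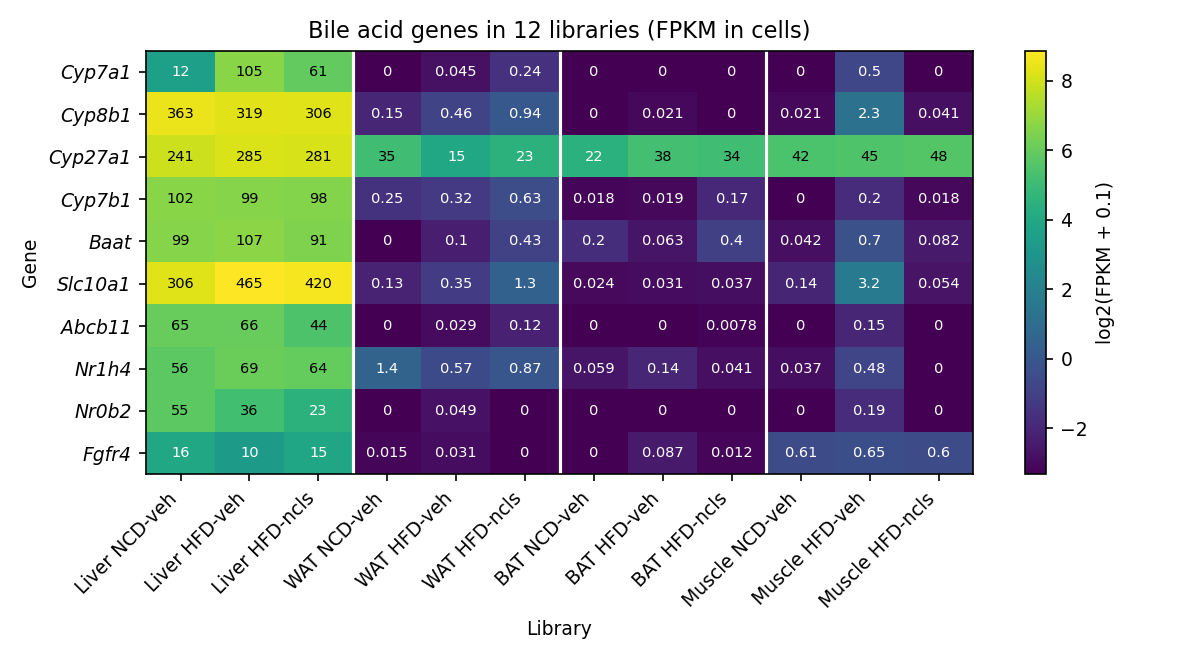
FPKM of the 10 bile acid genes (printed in each cell) in the 12 libraries, coloured by log2(FPKM + 0.1). The 3 liver columns are the highest for all 10 genes, and Cyp27a1 is the 1 gene above 10 FPKM in every library.

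Across organs, the bile acid genes were genes of the liver, with Cyp27a1 as the exception. For all 10 genes the 3 liver values lay above the 9 others, as they did for 12.2% of 13648 genes tested. The liver median was over 20 times the next organ median for 9 of the 10, against 3.73% of all genes. It was 8 of the 10 after rescaling by the median ratio. It was 7 when the lowest liver library was set against the highest other library with 0.1 FPKM added to both, where Cyp7a1 and Fgfr4 fell short. Without that addition Cyp7a1 stood at 22.9 times. On the medians, Fgfr4 lay just inside the limit of 20 times, at 20.7 times, and Cyp27a1 outside it, at 6.23 times. The liver held 73.4% of the summed organ medians of Cyp27a1 and between 95.8% (Fgfr4) and 100% (Nr0b2) of those of the others. The widest separations, with 0.1 FPKM added to both medians, were for Slc10a1, at 927 times, and Cyp8b1, at 565 times.

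Cyp27a1, which also oxidizes sterols outside the liver, was the only member with a level well above 1 FPKM in every organ. In WAT it had 34.7, 15.2 and 22.5 FPKM in the same order of groups, a log2 ratio of -1.19 between HFD-veh and NCD-veh, past 2-fold as were 3.87% of the 12208 genes tested there in that direction (5.24% were past 2-fold higher). In BAT it had 21.8, 37.6 and 34.3 FPKM, a log2 ratio of 0.78 in the same comparison, and the sums of muscle genes in those libraries, given above, ran in another order. The part of muscle RNA in the BAT values was not tested. In muscle it had 42.1, 44.98 and 48.2 FPKM. The order of the diet groups therefore differed between WAT and BAT, and with 1 library each the difference was not tested.

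Other members had low levels in single organs. Nr1h4 had 1.37, 0.567 and 0.873 FPKM in the WAT libraries in that order, about 56.1, 23.3 and 32.7 fragments. It was highest in NCD-veh WAT, the WAT library with the lowest sum of hepatocyte markers, and reached the minimum of 1 FPKM in that library alone. In HFD-veh WAT it was over 2-fold lower (log2 ratio of -1.14), as were 3.87% of the genes tested there, on the few fragments given. Fgfr4 had 0.613, 0.655 and 0.605 FPKM in the muscle libraries, about 50 to 58.6 fragments each, while hepatocyte markers summed to 1.45, 272 and 0.737 FPKM in them.

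The remaining members had their highest levels outside the liver in HFD-veh muscle or HFD-ncls WAT, where hepatocyte markers were highest too. In HFD-veh muscle all 17 markers were above 1 FPKM, with shares of their HFD-veh liver level from 0.331% to 0.759% and a median of 0.581%. There Slc10a1 had 3.20 FPKM, or 0.690% of its HFD-veh liver level, Cyp8b1 2.33 FPKM (0.730%) and Baat 0.704 FPKM (0.660%). Cyp7a1 had 0.503 FPKM in HFD-veh muscle, 0.478% of its liver level, and was listed at 0 in both other muscle libraries. Nr1h4 stood at 0.695%, Nr0b2 at 0.535%, Abcb11 at 0.227% and Cyp7b1 at 0.197%, so that Abcb11 and Cyp7b1 were below the range of the markers. In HFD-ncls WAT the markers summed to 103 FPKM, against 27.0 in HFD-veh and 2.996 in NCD-veh WAT, at a median of 0.236% of the liver level. Slc10a1 followed with 1.29, 0.353 and 0.129 FPKM and Cyp8b1 with 0.935, 0.464 and 0.150. Shares above those of all 17 markers included that of Baat in HFD-ncls BAT and those of Cyp7b1 in every WAT library. Baat had 0.201, 0.0630 and 0.400 FPKM in BAT, about 10, 3.15 and 19.1 fragments, and its HFD-ncls value was 0.440% of the liver level against at most 0.115% for a marker. Cyp7b1 had 0.245 FPKM in NCD-veh WAT, about 10.9 fragments and 0.240% of its liver level, against at most 0.142% for a marker. Its share was 0.323% in HFD-veh WAT and 0.641% in HFD-ncls WAT, against at most 0.126% and 0.493% for a marker. Further shares above the markers, on few fragments, included Cyp8b1 in HFD-veh WAT (0.146%) and Baat in HFD-ncls muscle (0.0899%, against at most 0.0167%). The part of liver RNA in these values was not tested.

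**Figure D5:**
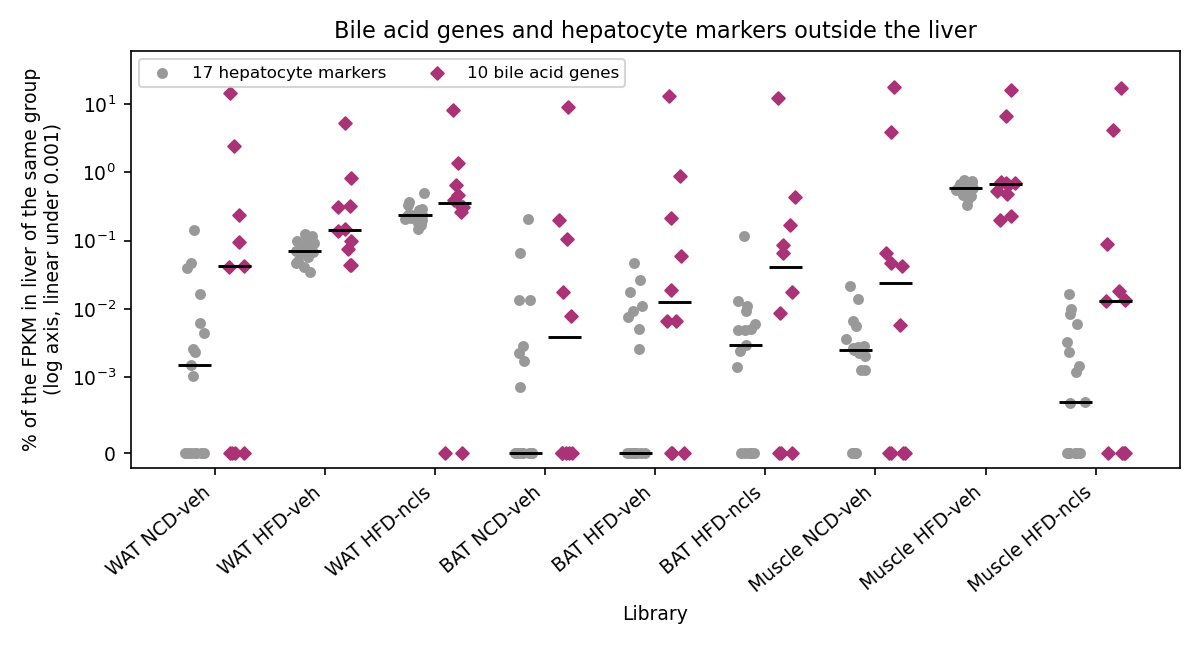
FPKM outside the liver as a percentage of the FPKM in liver of the same group (log axis, linear under 0.001%), for 17 hepatocyte markers (circles) and the 10 bile acid genes (diamonds), with medians as bars. In HFD-veh muscle the medians are 0.581% and 0.675%, and the highest diamond in every library is Cyp27a1.

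The genes most like each member over the 12 libraries were sought by Pearson r on log2(FPKM + 0.1), among 13647 other genes. Most of that likeness is the step between liver and the other organs, and libraries with liver transcripts share it too, so r is a description. Cyp7a1 was closest to Upp2 (r = 0.995), with 41.8 FPKM under NCD-veh, 189 under HFD-veh and 135 under HFD-ncls, and to Pklr, the liver pyruvate kinase gene (r = 0.995), with 27.4, 119 and 159. Nr0b2 was closest to Hsd17b2 (r = 0.998), with 80.7, 63.9 and 50.7 FPKM, and to 5033403H07Rik. Abcb11 was closest to Ugt2b38 and Cyp2c40, Cyp8b1 to Cfi and Pigr, and Slc10a1 to Hgd and Ces2e. Baat was closest to Cyp1a2 and 0610005C13Rik, Cyp7b1 to Fam187b and Hoga1, Nr1h4 to Apol9b and Kmo, and Fgfr4 to Kcnn2 and Tmem150a. For Cyp27a1, with its wide expression, the closest were Nadkd1 (r = 0.973) and Map3k13 (0.970).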

How the data were processed

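RNA from liver, WAT, BAT and quadriceps muscle was sequenced in the 3 groups of mice, with 1 library each. The authors aligned the reads to mm9 with TopHat and deposited FPKM values of RefSeq genes from Cufflinks, 1 value per symbol and library, with no further scaling between libraries stated. Of the 22276 symbols, 86 lacked a value in at least 1 library and were left out where it was lacking. Libraries were grouped by their labels. Ratios used log2(FPKM + 0.1), a minimum of 1 FPKM and thresholds of 2-fold and 1.4-fold. No count test was applied to FPKM, and no p-value was computed with 1 library per group. Depth was the commonest value of fragments implied by FPKM values between 0.001 and 0.05 in genes with 1 annotated transcript, and is approximate, as are fragment numbers from the longest annotated transcript. The counting function was tested on simulated data. Genes were named by these rules: all members, genes of the pathway lists and of the clock and zonation lists past 2-fold in a liver comparison with counts for the rest, and the 2 genes most like each member. Further pathway genes were named after their values were seen, as were the promoters and motifs shown. So were the markers Clec4f, Elovl3, Adipoq, Lep, Retn, Hpx, Itih3, Ambp, Spp1, Dcn, Krt19, Sox9, Lrat, Des and Col1a1. The clock list was planned with 1 more gene, which is not reported here. Members and lists were chosen with earlier results of these data known. Gene positions are from GENCODE on NCBIM37 (mm9), and promoters from RefSeq on GRCm38.p6. Alternatives changed the pseudocount, filter, scaling and threshold. Python 3.11.15, numpy 2.4.6, pandas 2.3.3 and matplotlib 3.10.9 were used.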

Additional observations from a re-analysis of the deposited data

Results flagged for a closer look

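Cyp27a1 differed in direction between the adipose tissues. Between HFD-veh and NCD-veh its log2 ratio was -1.19 in WAT and 0.78 in BAT, and between HFD-ncls and NCD-veh it was -0.62 in WAT and 0.65 in BAT. Between HFD-ncls and HFD-veh, the log2 ratio of Slc10a1 was 1.61 in WAT (0.353 to 1.29 FPKM) and -4.43 in muscle (3.20 to 0.0538 FPKM), where the summed hepatocyte markers were 27.0 and 103 FPKM in the WAT libraries and 272 and 0.737 in the muscle libraries. These differences between organs were picked out because the values move in opposite directions past 1.4-fold, and they were not tested, with 1 library each.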

How the results depend on the processing

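The 10 genes kept their side of 2-fold under every alternative of pseudocount, filter and scaling tried, 180 values in all, with ratios between libraries within 1.5 times of the main ones, and the log2 ratio of Cyp7a1 between HFD-veh and NCD-veh liver ran from 3.09 to 3.21. Of these, the log2 ratio of Abcb11 between HFD-veh and NCD-veh liver, which lay near 0, changed sign (-0.02 to 0.04). At 1.4-fold, 2 members were higher and 2 lower between HFD-veh and NCD-veh, and 1 higher and 3 lower between HFD-ncls and HFD-veh. Between HFD-ncls and NCD-veh, 1 was higher and 2 were lower at 1.4-fold. Over all genes, in the order HFD-veh to NCD-veh, HFD-ncls to HFD-veh and HFD-ncls to NCD-veh, the counts higher and lower were 286 and 227, 100 and 130, and 257 and 261. They stayed within 1.5 times of these with a pseudocount of 0.01 FPKM and under both rescalings. They became 165 and 115, 32 and 66, and 154 and 125 with a pseudocount of 1 FPKM, 537 and 489, 324 and 333, and 491 and 484 without the filter on FPKM, and 162 and 117, 33 and 53, and 153 and 121 with an FPKM of at least 5, since the pseudocount shrinks low ratios and the filter sets how many low genes are counted. At 1.4-fold they were 1331 and 1051, 685 and 803, and 1149 and 942. No paired analysis was possible because each organ and group has 1 library. Depth limited the values outside the liver, many of which rest on few fragments.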

Other observations

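Genes that bile acid receptors and sterol sensors are known to regulate outside bile acid synthesis were read in liver as well. Of 8 targets of LXR, the oxysterol receptor that induces Cyp7a1 in mice, 2 were over 2-fold higher in HFD-veh than in NCD-veh liver and none was lower, with a median log2 ratio of 0.12. Over all genes tested, 2.86% were past 2-fold higher and 2.27% lower, with a median of 0.04. Srebf1, the regulator of fatty acid synthesis, had 13.3 FPKM under NCD-veh, 69.9 under HFD-veh and 95.04 under HFD-ncls, and Scd1, the stearoyl-CoA desaturase, had 561, 1271 and 1333. The sterol exporters Abcg5 (36.7, 34.98 and 33.5 FPKM) and Abcg8 (24.95, 26.8 and 27.9) and the cholesterol exporter Abca1 (10.96, 12.1 and 8.74) were not past 2-fold. Pltp, the phospholipid transfer protein gene, had 13.3, 14.1 and 34.1 FPKM. It was the 1 gene of the list over 2-fold higher in HFD-ncls liver than in HFD-veh liver, where 1.00% of all genes tested were.

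Of 5 detoxification genes with values, 3 were higher and 2 lower in HFD-veh than in NCD-veh liver, with a median log2 ratio of 0.27. Between HFD-ncls and HFD-veh liver, 1 was higher and 4 lower, with a median of -0.61. The medians of all genes tested were 0.04 and 0.02. Cyp3a11, which hydroxylates bile acids among many substrates, had 1165 FPKM under NCD-veh, 330 under HFD-veh and 177 under HFD-ncls. Its log2 ratio was -1.82 between HFD-veh and NCD-veh, past 2-fold lower as were 2.27% of all genes tested. Cyp2b10, a target of the receptor CAR, had 0.697, 1.17 and 0.182 FPKM and lies near the minimum of 1 FPKM. Its log2 ratio was -2.18 between HFD-ncls and HFD-veh, past 2-fold lower as were 1.31% of all genes tested. Cyp3a11 and Cyp2b10 belong to families of close copies, so how reads were shared among these is uncertain. Ugt1a1, which glucuronidates bilirubin, had 111, 135 and 88.1 FPKM, and Sult1a1 had 228, 226 and 228. Gsta3 had 857, 1161 and 1119 FPKM, above NCD-veh in both HFD libraries.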
